A study of Homo sapiens with 54 samples.

Results

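The genes of ribosome assembly and of RNA polymerase I are described here in 6 human carcinoma cell lines, untreated and exposed to an inhibitor of growth signalling or of the cell cycle. The group holds 44 genes chosen by name, and all 44 were found among the 33119 genes of the count tables. They comprise 3 core proteins of box C/D small nucleolar particles, 4 core proteins of box H/ACA particles, 3 abundant nucleolar proteins, 12 assembly factors of the large ribosomal subunit, 14 of the small subunit, 6 genes of RNA polymerase I and its factors, and 2 nucleolar RNA enzymes. All 44 passed the filter on low counts in every comparison below.

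Ribosomal RNA is made in the nucleolus by RNA polymerase I. UBTF opens and marks the ribosomal DNA, and RRN3 carries the polymerase to its promoter. Box C/D particles, built on NOP56, NOP58 and the methyltransferase FBL, methylate the precursor, and box H/ACA particles, built on the pseudouridine synthase DKC1 with NHP2, NOP10 and GAR1, convert uridine to pseudouridine. Assembly factors then fold, cut and export the separate small and large subunits. Growth factor signalling through MEK and ERK is known to raise ribosome production, and the transcription factor MYC is known to activate many of these genes.

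RNA was measured by Lexogen QuantSeq, which reads the 3′ ends of polyadenylated transcripts and gives counts per gene. The first set of libraries (set 1) holds the colorectal cancer lines SW48 and SW620 as controls and with trametinib, which blocks MEK1 and MEK2, the kinases that activate ERK. The other set (set 2) holds SW48 and SW620 as controls, with trametinib and with palbociclib, an inhibitor of the cyclin-dependent kinases CDK4 and CDK6. It also holds the stomach cancer lines NCI-N87 and MKN-45 and the breast cancer lines BT-20 and BT-474, each as controls and with afatinib, an inhibitor of the EGFR and HER2 receptors. Each of the 18 groups had 3 libraries, 54 in all, and all lines were grown in DMEM with serum. The dose, the exposure time and what the controls received are not stated in the labels, so the drugs are not compared at known matched doses. Whether the 3 libraries of each group stem from separate cultures is not stated, so each p-value measures the spread between libraries, which may be technical. In bulk RNA, a change in a part of the cells cannot be told from a smaller change in all of them. Counts are relative within a library, so total RNA per cell is not seen.

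Promoter sequences are shown for the members that carry the letters CACGTG, the canonical E-box that MYC can bind, within the 250 bases before a start. They come from RefSeq (GRCh38.p14), which gave 46 starts for 37 of the 44 members. The stretches run 5′ to 3′ on the gene's own strand, with the E-box letters in capitals.

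DDX21: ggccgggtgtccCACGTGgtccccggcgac
EBNA1BP2: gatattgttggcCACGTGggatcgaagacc
NAT10: aatgcgcttgcgCACGTGctgtctacc
NOP10, upstream: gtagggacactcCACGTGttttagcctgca
NOP10, near the start: gaaattgacgaaCACGTGacgcg
UTP20: cttttttccgtcCACGTGaccc
UTP4: agagcgcgcgcgCACGTGgggccggggc

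The DDX21 stretch lies at chr10:68956604-68956633 on the plus strand, with the E-box 31 bases before the start. The EBNA1BP2 stretch is at chr1:43172790-43172819 on the minus strand, 237 bases before the start. The NAT10 stretch is at chr11:34105602-34105628 on the plus strand, at 15 bases. NOP10 holds matches at chr15:34343289-34343318 and chr15:34343137-34343159 on the minus strand, at 170 and 11 bases. UTP20 has its match at chr12:101280083-101280104 on the plus strand, 10 bases before the start, and UTP4 at chr16:69132621-69132648 on the plus strand, at 16 bases. CACGTG, which reads the same on both strands, was found in 6 of the 46 member promoters (13%), against 8.04% of 15524 promoters of genes tested in the untreated lines and 6.34% of all 35116 promoters. The letters CCGGAAG or their reverse CTTCCGG, as bound by ETS factors, were found in 17 member promoters (37%), against 13% of promoters of tested genes and 8.52% of all. CGCATGCGC or its reverse GCGCATGCG, as bound by NRF1, was found in 3 (6.52%), against 2.47% and 1.64%. A match is a description of the letters and not of binding. Of the 6 members with an E-box, DDX21 was lower in 5 of the 10 drug comparisons and EBNA1BP2 and UTP4 in 4 each. NAT10 and UTP20 were lower in 3 each, and NOP10 in 0 but higher in 2. Over all members, 4 were lower in 5 comparisons, 17 in 4, 15 in 3, 3 in 2, 4 in 1 and 1 in 0. Most of the whole group was thus lower in 3 or more, with or without an E-box. Only 5 of the 10 comparisons called any member, and in these 17.4 to 30.1% of all genes were lower. Of those 5, 3 were in SW48, where the trametinib and palbociclib comparisons of set 2 shared their controls. In how many comparisons each of the other genes was lower was not counted. Whether an E-box goes with the response was not tested.

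Library totals ran from 3401565 to 12806042 counts. Intestinal markers summed to between 90.9 and 112.2 CPM (counts scaled to a common library size) in the set 2 controls of SW48 and SW620, to 268.9 to 323.3 CPM in NCI-N87 and 156.1 to 165.9 CPM in MKN-45, and to at most 4.94 CPM in BT-20 and BT-474, so that list was higher in both stomach lines than in the colorectal lines. Breast markers reached 834.1 to 894.9 CPM in BT-474 and 133.6 to 136.7 CPM in BT-20. Stomach markers summed to 135.5 to 153.5 CPM in MKN-45 but to only 33.8 to 41.1 CPM in NCI-N87, below the 342.2 to 365.7 CPM of BT-474. A few libraries stood apart from their group. The SW620 control 3 of set 1 had 0.338% of its reads not aligned, against 2.96% and 4.68% in the other controls, and it is taken up with the SW620 values below. In NCI-N87, control 1 gave 8.15% of its counts to mitochondrial ribosomal RNA against 3.39% and 3.18%. Genes of at least 100 CPM in the set 2 controls of another line and under 1 CPM in those of SW48 were summed as a check for reads of other lines. In SW48 in set 1 the genes of SW620, the only other line of that set, stood at no more than 0.769% of their SW620 level. The genes of BT-20 reached 12.1% of their own line's level in 1 control and those of MKN-45 21.5% in 1 trametinib library, where the median gene was at 1.78% and 0.836%. In SW48 in set 2 the SW620 genes stood at no more than 0.157% in controls and 0.177% with trametinib, and the BT-20 genes reached 4.23% in 1 trametinib library. By the same sum for SW620 in set 1, the SW48 genes stood at no more than 1.11%. The BT-474 genes reached 8.92% in control 1 and 9.30% in control 3, and the MKN-45 genes 9.59% in control 3. The median gene was there at 1.81%, 1.51% and 0%. Breast markers summed to 112.4 to 278.8 CPM in the SW620 controls of set 1, against 6.62 to 10.7 CPM in set 2. The part of these values in the results was not tested.

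In the untreated lines the members made up 1.26 ± 0.0103% of all counts in SW48 (SD, n = 3), 1.35 ± 0.0458% in SW620 and 1.36 ± 0.113% in MKN-45. Their share was 0.631 ± 0.0116% in BT-20, 0.632 ± 0.0125% in BT-474 and 0.558 ± 0.140% in NCI-N87. Within set 2 the ranges of SW48, SW620 and MKN-45 did not overlap those of the other lines. In the controls of set 1 the share was 1.154 ± 0.1095% in SW620 but only 0.691 ± 0.0259% in SW48. That SW48 range, 0.664 to 0.716%, overlapped the 0.458 to 0.718% of NCI-N87 in set 2. The sets were not tested against each other, so the high SW48 level holds for set 2 only. By edgeR's quasi-likelihood F test over the 6 lines of set 2 all 44 members differed, where 97.1% of all genes tested did. Of the 44, 17 were highest in SW48, 15 in SW620, 11 in MKN-45 and 1, PPAN, in BT-474. The lowest line was NCI-N87 for 23 members, BT-20 for 14 and BT-474 for 7. The ratio of the highest to the lowest line had a median of 3.56 over the members. Of the 220 neighbouring pairs of lines in these orders, 96 had overlapping libraries.

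NOP56, the box C/D scaffold (chr20:2652145-2658393 in GRCh38), had 1 of the widest spans. Its mean was 1042 CPM in SW620 and 137.6 CPM in NCI-N87, a ratio of 7.58. The SW48 controls read 568.6, 553.7 and 588.4 CPM and the BT-474 controls 405.8, 388.3 and 397.2 CPM. MKN-45 and BT-20 followed, and the order was SW620, SW48, BT-474, MKN-45, BT-20 and NCI-N87, with each neighbour separate except BT-20 and NCI-N87. UTP4, a small subunit processome protein, spanned 8.92-fold, from 549.2 CPM in SW620 to 61.6 CPM in NCI-N87; the annotation overlaps it with SNTB2, so its reads could be shared. NIP7, which acts on the large subunit, spanned 7.20-fold with SW620 at 178.9, 211.5 and 163.8 CPM, above every other line. RRS1, which brings 5S RNA into the large subunit, was highest in SW48, at 69.6, 80.9 and 81.4 CPM, and lowest in NCI-N87, at 16.2, 8.62 and 10.0 CPM. The smallest spans were those of POLR1C, a subunit shared by polymerases I and III, at 1.89-fold, UBTF at 1.95-fold and HEATR1 at 1.99-fold. NCL, an abundant nucleolar RNA-binding protein, was 1 of the 11 members highest in MKN-45 (mean 4841 CPM), and was lowest in BT-20 (912.8 CPM). MYC itself had a mean of 206.7 CPM in SW48, 167.0 in SW620, 57.4 in BT-474, 28.1 in BT-20, 26.7 in NCI-N87 and 23.1 in MKN-45. MKN-45, with a member share in the range of the colorectal lines of set 2, had the lowest mean of MYC. The part of MYC in the member levels was not tested.

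**Figure D1:**
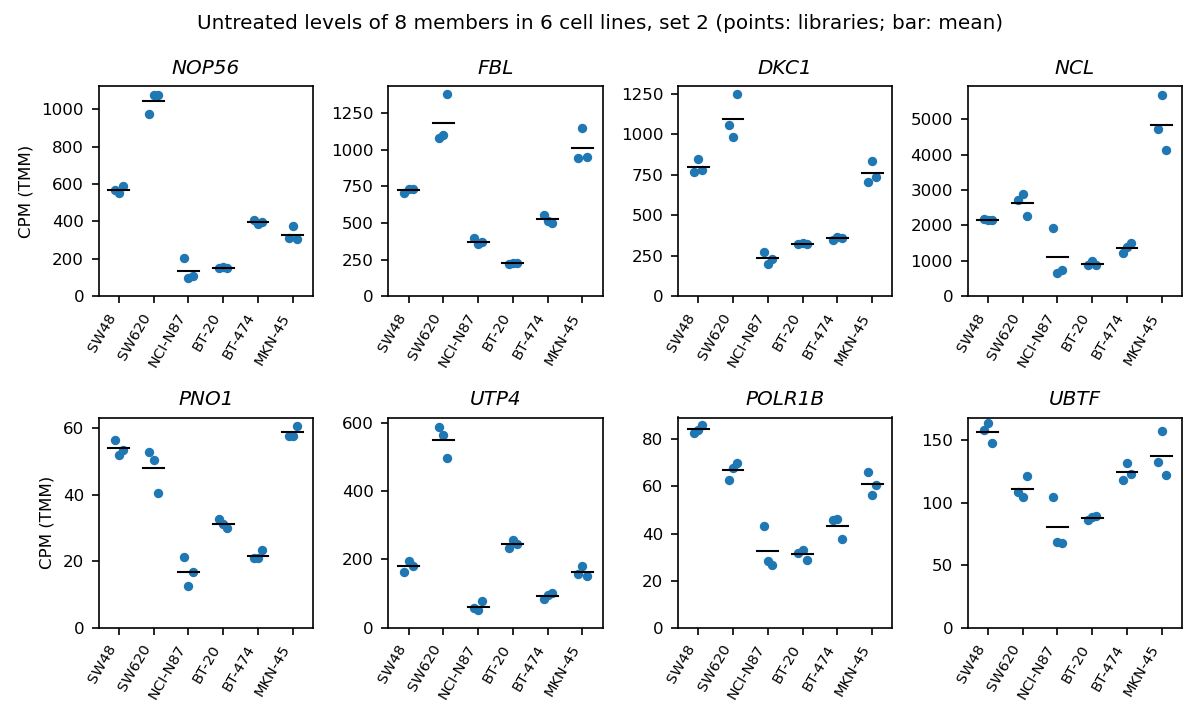
Normalized counts (CPM) of 8 members in the untreated controls of set 2, with 1 point per library and 3 libraries per line. SW620 is the highest line for NOP56 and UTP4, NCL is highest in MKN-45, and UBTF differs least.

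Trametinib lowered nearly the whole group in SW48. In set 2, 40 of the 44 members were lower and 1, UBTF, was higher, by edgeR's quasi-likelihood test with Benjamini-Hochberg adjustment over all genes at 0.05, against 30.1% of all genes lower and 30.1% higher. Their median log2 fold change was −0.71, where the median over all genes was 0.01, and the members ran from −1.597 to 0.24. Every one of the 14 small subunit factors and 11 of the 12 large subunit factors were lower. The members not called were FBL, NOP10 and PPAN, and PPAN, which shares its locus with P2RY11, is uncertain. Scaled by library totals in place of TMM, the all-gene median was 0.135 and the members split 37 lower and 2 higher, with all genes at 2981 lower and 4824 higher.

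Among small subunit factors, PNO1, which helps mature the 3′ end of 18S RNA (chr2:68157844-68176238), fell furthest. Controls read 56.6, 52.0 and 53.6 CPM and trametinib libraries 18.01, 17.35 and 18.93 CPM. The groups were far apart, with a log2 fold change of −1.597 (SE 0.08, edgeR adjusted p = 4.3e-09). UTP4 went from 164.3, 195.0 and 181.5 CPM to 80.7, 91.9 and 73.6 CPM, which is −1.16 (SE 0.09). RRP12, an export factor, fell by 1.13 and WDR3, of the processome, by 0.99 on the log2 scale. Among large subunit factors NIP7 went from 60.3, 58.0 and 63.5 CPM to 29.1, 25.9 and 25.1 CPM (log2 fold change −1.20, SE 0.08, edgeR adjusted p = 6.1e-08). MRTO4, which holds the place of the stalk protein P0, fell by 1.08, RRS1 by 1.01 and NOP2, a ribosomal RNA methyltransferase, by 0.94. The low trametinib values did not overlap the controls for these genes.

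The RNA enzyme DDX21 (chr10:68956128-68985073), a helicase of the polymerase I and small nucleolar RNA machinery, stood at 1675, 1664 and 1847 CPM in controls and 754.7, 741.7 and 740.2 CPM with trametinib (log2 fold change −1.23, SE 0.06, edgeR adjusted p = 1.6e-09). NAT10, which acetylates ribosomal RNA, fell by 0.58. In the small nucleolar particles, DKC1 went from 767.8, 846.7 and 776.7 CPM to 340.1, 378.5 and 376.4 CPM, a log2 fold change of −1.15 (SE 0.06). NOP58 went from 586.9, 564.9 and 636.2 CPM to 296.5, 269.3 and 275.0 CPM, which is −1.11. NOP56 fell by 0.73 and GAR1 by 0.62, while FBL, on the same particle as NOP56 and NOP58, read 707.2, 735.9 and 733.2 CPM against 631.3, 690.2 and 704.2 CPM, −0.12 with adjusted p = 0.076. NHP2 fell by 0.30, but its call was lost with library totals in place of TMM (log2 fold change −0.17). FBL is called without trametinib library 3 (−0.15). NCL fell by 0.59 and NOLC1, a chaperone of small nucleolar particles, by 0.93. NPM1, which has many processed copies and is uncertain, fell by 0.58.

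**Figure D2:**
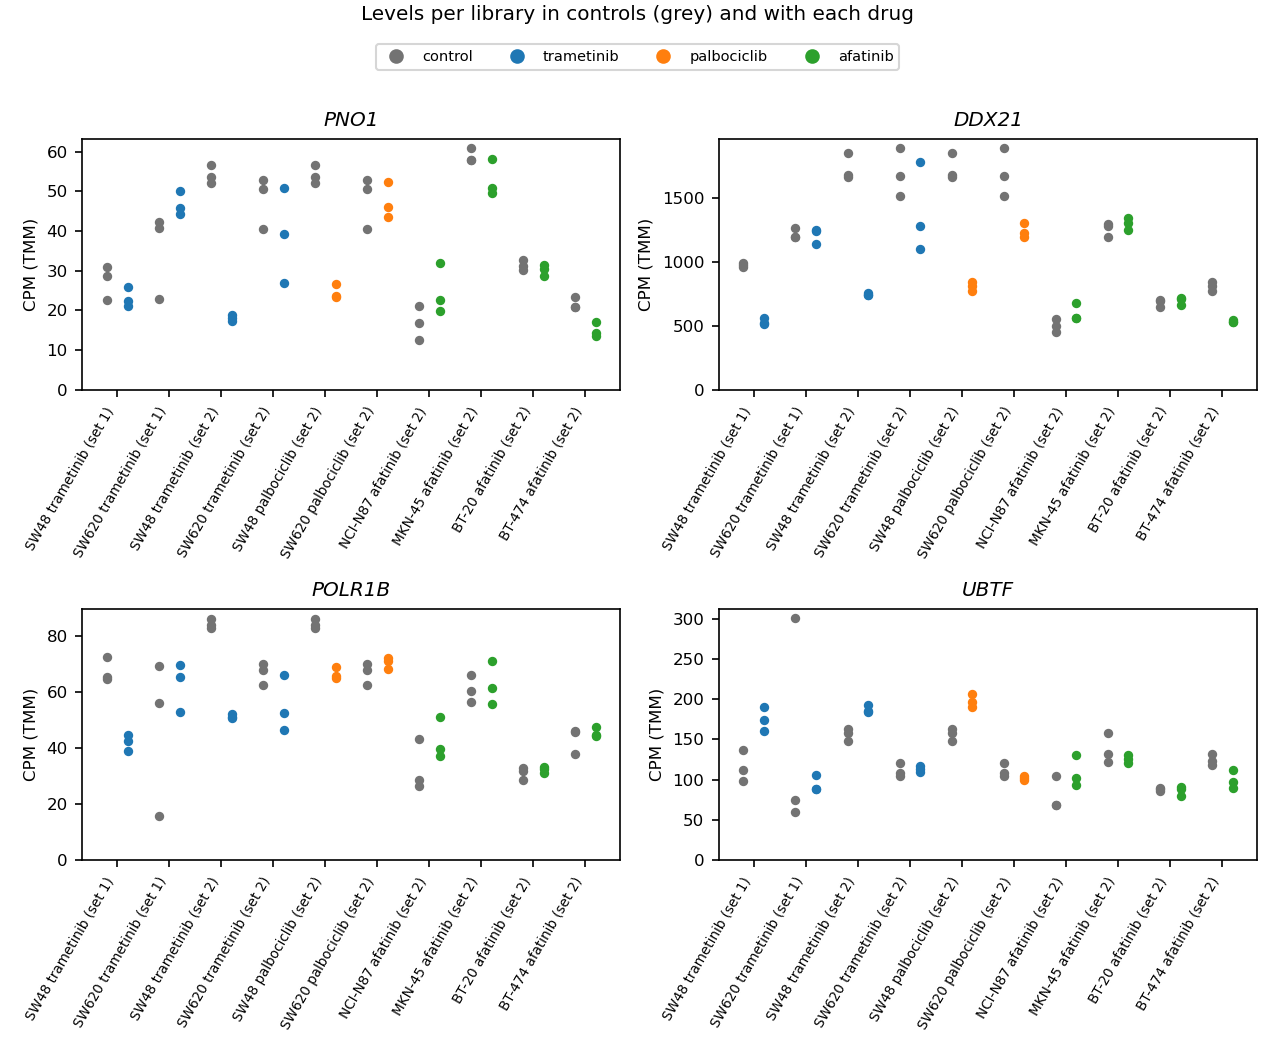
Normalized counts (CPM) of PNO1, DDX21, POLR1B and UBTF in every library, grey for controls and coloured for drug. In SW48 set 2 the trametinib points lie under the controls for the first 3 genes and above them for UBTF.

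Of the 6 genes of RNA polymerase I and its factors, 5 were lower and 1, UBTF, was higher. RRN3 (near-identical copies exist, so its counts are uncertain) went from 157.9, 138.6 and 168.4 CPM to 89.9, 86.6 and 67.0 CPM (log2 fold change −0.95, SE 0.11, edgeR adjusted p = 6e-06). POLR1B, a subunit of the catalytic core (chr2:112541915-112577150), went from 82.8, 83.9 and 86.2 CPM to 51.0, 50.6 and 52.3 CPM, −0.74 (SE 0.06). POLR1E, another subunit, fell by 0.90 and POLR1C by 0.38. POLR1A, the largest subunit, fell by only 0.27 (adjusted p = 0.026), and leaving out 1 of 4 libraries (control 1, control 3, trametinib 1 or trametinib 2) ended the call, as did DESeq2, at values from −0.28 to −0.22. UBTF (chr17:44205033-44221626) read 158.2, 163.1 and 147.7 CPM in controls and 184.5, 192.2 and 185.4 CPM with trametinib, so the groups were apart in the other direction, at 0.24 (SE 0.06, edgeR adjusted p = 0.0046). In a fit of all groups of the set this was 0.26 and not called.

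In set 1, which was not tested against set 2, 17 members of SW48 were lower and 1, UBTF, higher, against 19.4% and 16% of all genes, with a median of −0.29. With library totals the split was 12 lower and 1 higher, against 1804 and 2689 of all genes, whose median was then 0.144. Of the 17 lower members, 16 (94.12% of them, and 40% of the 40 in set 2) were lower in set 2 too, where 40 of the 44 were lower in any case. NOB1, the endonuclease that ends 18S RNA, read 168.7, 164.1 and 180.8 CPM in controls and 91.0, 75.6 and 95.4 CPM with trametinib (−0.96, SE 0.11, edgeR adjusted p = 0.00045). DDX21 read 955.4, 976.2 and 992.8 CPM against 559.0, 512.9 and 525.0 CPM (−0.86, SE 0.07). These 2 groups did not overlap. RRP12 fell by 1.03, GAR1 by 0.95, RRS1 by 0.87, RRN3 by 0.86 and POLR1B by 0.68, and UBTF rose by 0.61. In a fit of all groups of set 1, 8 members were called, and RRP12, RRS1, RRN3, POLR1B and UBTF were not among them. DKC1 fell by 0.54. PNO1, the gene that fell most in set 2, was at −0.23 and not called here, nor were NOP56 (0.10), NCL (0.03) and NPM1 (−0.14). POLR1A was at −0.62 with adjusted p = 0.063. FBL, NOP2 and BYSL, at −0.27, −0.45 and −0.70, were called, but each lost its call when control 2 was left out (−0.24, −0.44 and −0.71), when control 3 was (−0.26, −0.45 and −0.58) and when trametinib 2 was (−0.24, −0.37 and −0.51). Without trametinib 1, FBL (−0.26) and BYSL (−0.74) also lost theirs, and NOP2 without trametinib 3 (−0.42). In the SW48 trametinib libraries of set 1, 42.4 to 47.5% of reads were not aligned, against 22.4 to 38.0% in controls, and mitochondrial ribosomal RNA was 4.64 to 5.64% against 1.63 to 3.81%; their part in the result was not tested.

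**Figure D3:**
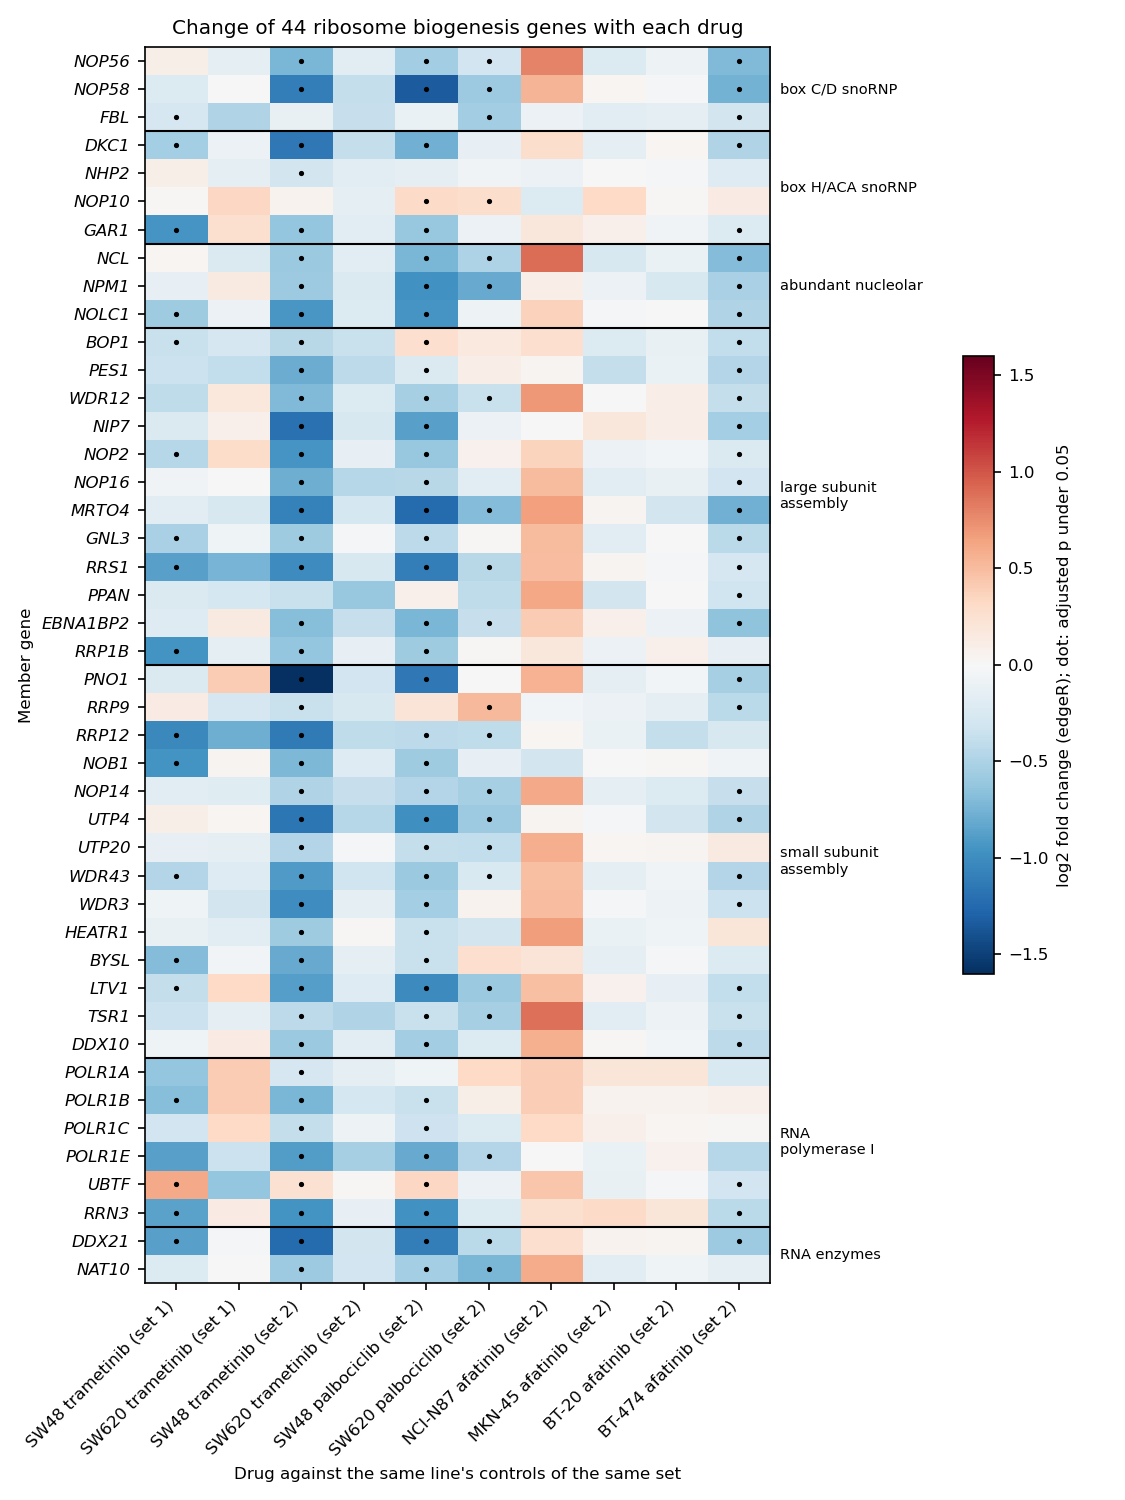
Log2 fold change of each of the 44 members (rows, by role) in the 10 drug comparisons (columns), with a dot where the edgeR adjusted p is under 0.05. The SW48 and BT-474 columns and the SW620 palbociclib column hold the dots, and UBTF and NOP10 are the members higher in more than 1 comparison.

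Palbociclib, which blocks the cyclin-dependent kinases rather than MEK, lowered 36 members in SW48 and raised 3, against 29.2% and 28.3% of all genes, with a median of −0.55. NOP58 fell most, from the same controls of 586.9, 564.9 and 636.2 CPM to 232.9, 244.7 and 237.3 CPM (−1.33, SE 0.06, edgeR adjusted p = 3.6e-10). MRTO4 went from 165.3, 155.0 and 179.7 CPM to 73.0, 73.4 and 67.4 CPM, a log2 fold change of −1.24. LTV1, a late small subunit factor, went from 161.7, 148.8 and 182.1 CPM to 75.5, 86.3 and 82.1 CPM, which is −1.02. All 3 were below every control. DDX21 fell by 1.11, RRS1 by 1.11, PNO1 by 1.14, UTP4 by 0.98, NPM1 by 0.97, RRN3 by 0.97, NOLC1 by 0.94 and NIP7 by 0.87. POLR1E fell by 0.80, DKC1 by 0.76, NCL by 0.73, GAR1 by 0.61, NOP56 by 0.55, NAT10 by 0.54 and POLR1B by 0.35. UBTF rose by 0.33 (SE 0.07, edgeR adjusted p = 0.00058), NOP10 by 0.31 and BOP1, a large subunit factor, by 0.27. FBL, NHP2, PPAN, RRP9 and POLR1A were not called, and FBL is called without palbociclib library 1 (−0.17).

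In SW620 palbociclib lowered 19 members and raised 2, against 17.4% and 17.6% of all genes, with a median of −0.22. NPM1 went from 1366, 1476 and 1293 CPM to 773.5, 755.7 and 808.9 CPM (−0.80, SE 0.08, edgeR adjusted p = 5.6e-05), and NAT10 from 293.2, 318.7 and 290.5 CPM to 177.6, 171.6 and 184.8 CPM (−0.74, SE 0.07). MRTO4 went from 183.8, 217.6 and 189.2 CPM to 119.6, 123.0 and 117.1 CPM, −0.69. All 3 were lower in every palbociclib library. FBL read 1078, 1100 and 1378 CPM in controls and 817.9, 770.7 and 804.3 CPM with the drug, which is −0.55 (SE 0.10, edgeR adjusted p = 0.0021). LTV1 fell by 0.59, NOP58 and UTP4 by 0.58, TSR1 by 0.54, NOP14 by 0.53, NCL by 0.50, RRS1 by 0.44 and DDX21 by 0.43. NCL was not called in the fit of all groups (−0.52). NOP56, WDR12, EBNA1BP2 and POLR1E fell by 0.30 to 0.46 but each lost its call without palbociclib library 1 (−0.28, −0.32, −0.34 and −0.48). Control 2 also decided WDR12 (−0.28 without it), EBNA1BP2 (−0.24) and POLR1E (−0.38), and control 3 POLR1E (−0.45). Without palbociclib 2, EBNA1BP2 (−0.39) and POLR1E (−0.34) were not called, and without palbociclib 3 NOP56 (−0.31) and EBNA1BP2 (−0.40) were not. RRP9, a protein of the U3 small nucleolar particle, rose by 0.51 and NOP10 by 0.28; NOP10 is lost without palbociclib 1 (0.22). PNO1 read 52.9, 50.6 and 40.6 CPM in controls and 43.5, 46.1 and 52.4 CPM with palbociclib, so its groups overlapped (0.00, SE 0.12, edgeR adjusted p = 0.99). DKC1 (−0.13), POLR1A (0.31), POLR1B (0.10), UBTF (−0.10) and RRN3 (−0.22) were not called either. Without control 3, RRN3 was called (−0.37).

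Trametinib gave no called member in SW620 in either set. In set 1 edgeR called 0 of 44, 0% of all genes being lower and 0% higher. An unadjusted p under 0.05 was found for 0 members, against 366 of all 13081 genes tested. DESeq2 called 0 members, and the median was −0.08. Control 3 of that set was far from the others. UBTF read 74.8, 59.8 and 300.2 CPM, FBL 682, 753 and 1458 CPM and POLR1B 56.0, 69.4 and 15.9 CPM, against 87.8, 88.3 and 105.7 CPM, 737, 648 and 681 CPM, and 69.5, 65.5 and 53.0 CPM with trametinib. Without it the members' median was 0.04 and still 0 were called. In set 2 edgeR called 0 of 44 as well, against 0% and 0% of all genes. An unadjusted p under 0.05 was found for 14 members, against 2204 of all 12919 genes tested. DESeq2 called 0 members. The median was −0.24, and 42 members were negative, against 6531 of all 12919 genes. The fold changes that came closest were those of POLR1E (27.8, 37.4 and 33.6 CPM against 27.3, 22.7 and 18.6 CPM; −0.53, adjusted p = 0.22), TSR1 at −0.48 and NOP14 at −0.38. The trametinib libraries differed among themselves, with member scores of −0.01, −0.30 and −0.45 (mean log2(CPM + 1) over the 44 less the controls' mean). Without trametinib library 1, the one nearest the controls, 12 members were called, all lower, where 882 of all 13141 genes tested were called, 465 of them lower. The members' median was then −0.36, among them POLR1E at −0.66, TSR1 at −0.64, DKC1 at −0.56 and NOP14 at −0.50.

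BT-474 and the stomach line NCI-N87, described below, are both HER2-high. Afatinib lowered 31 members in BT-474 and raised 0, against 21.8% and 20.9% of all genes, with a median of −0.37. With library totals the split was 19 lower and 2 higher and the all-gene median 0.142, with 1869 genes lower and 3844 higher. MRTO4 read 106.0, 111.3 and 119.5 CPM in controls and 59.7, 59.9 and 77.4 CPM with afatinib (−0.77, SE 0.10, edgeR adjusted p = 6.2e-05). NOP58 read 310.4, 280.1 and 335.7 CPM against 178.5, 178.9 and 187.4 CPM (−0.76, SE 0.07), and NOP56 405.8, 388.3 and 397.2 CPM against 244.4, 226.4 and 254.2 CPM (−0.71, SE 0.06). In all 3 genes the afatinib libraries were below every control. NCL fell by 0.69, EBNA1BP2 by 0.64, DDX21 by 0.59, PNO1 by 0.53, NPM1 by 0.51, DKC1, NOLC1 and UTP4 by 0.48 each, WDR43 by 0.46 and RRN3 by 0.44. NIP7 fell by 0.54 but lost its call without control 3 (−0.40), PES1 by 0.47 but not without control 1 (−0.44), and UBTF by 0.30 but not without control 2 (−0.27) or with library totals (−0.18). FBL fell by 0.29, also lost with library totals (−0.17). The polymerase subunits POLR1A (−0.24), POLR1B (0.08), POLR1C (0.02) and POLR1E (−0.45) were not called, nor were NOB1, RRP1B, HEATR1, UTP20, BYSL, RRP12, NHP2, NOP10 and NAT10.

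In the other afatinib lines the calls were few or none. BT-20 had 0 of 44 by edgeR, where 0.312% of all genes were lower and 0.273% higher. There 6 members had an unadjusted p under 0.05, against 1602 of all 12810 genes tested, a similar share. DESeq2 called 2 members lower, with no count over all genes given here. The members nearest a call by edgeR were NPM1 (373.4, 384.4 and 375.6 CPM against 340.9, 315.5 and 285.2 CPM; −0.26, adjusted p = 0.12) and UTP4 (−0.29, adjusted p = 0.13), the former called without afatinib library 1 (−0.33). MKN-45 had 0 of 44, against 0% and 0%, with 0 calls by DESeq2 and a median of −0.09. An unadjusted p under 0.05 was found there for 5 members, against 664 of all 12358 genes tested. NCI-N87 had 0 of 44, against 0% and 0%, with 0 calls by DESeq2 and a positive median of 0.39. In NCI-N87 13 members had an unadjusted p under 0.05, against 1523 of all 12472 genes tested. In that line control 1 stood at 1929 CPM of NCL and the other controls at 659.6 and 753.4 CPM, against 1947, 1900 and 2345 CPM with afatinib, and NOP56 read 206.1, 98.4 and 108.3 CPM against 220.1, 210.4 and 281.3 CPM. The fold changes were 0.89 (adjusted p = 0.38) for NCL and 0.79 for NOP56. Without control 1, 21 members were called, 20 of them higher, where 2108 of all 12850 genes tested were called, 1053 of them higher, with a median of 0.58 and NCL at 1.55 and NOP56 at 1.20. The same control had the 8.15% mitochondrial ribosomal RNA given above, whose part in the result was not tested.

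**Figure D4:**
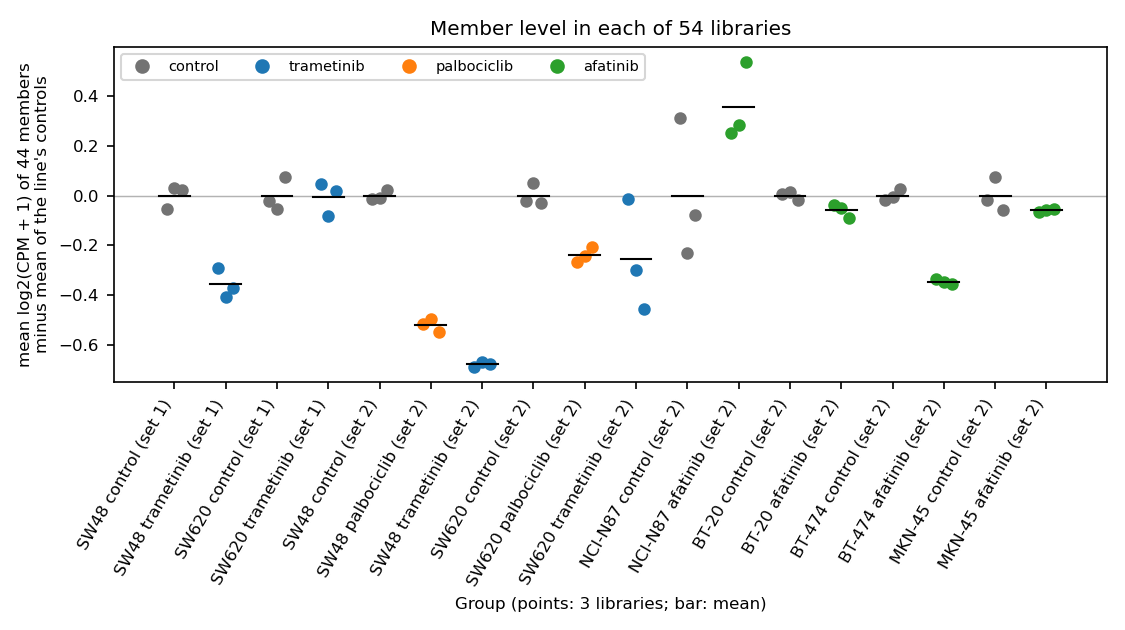
Member score of each of the 54 libraries: mean log2(CPM + 1) over the 44 members minus the mean of the same line's controls in the same set. SW48 with trametinib in set 2 lies at −0.69 to −0.67 and BT-474 with afatinib at −0.36 to −0.34, while NCI-N87 controls spread from −0.23 to 0.31.

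The difference between lines was tested directly as an interaction. Trametinib lowered members less in SW620 than in SW48: in set 2, 25 members had a higher fold change in SW620 and 0 a lower one, against 15.3% and 12.9% of all genes, with a median difference of 0.49. The largest differences were PNO1 at 1.32 (SE 0.24, edgeR adjusted p = 0.0011), DDX21 and NIP7 at 0.96, WDR3 at 0.86 and NOP2 at 0.84, with RRN3 also at 0.84. DKC1 differed by 0.79 and NOP56 by 0.58. FBL (−0.23) and UBTF (−0.20) were not called. In set 1 only NOB1 (1.01, SE 0.19, edgeR adjusted p = 0.010) and DDX21 (0.86, SE 0.14, edgeR adjusted p = 0.0045) differed, against 3.95% higher and 2.78% lower over all genes, with a median of 0.27, but without the SW620 control 3 of that set 13 members did, where 2439 of all 14966 genes tested did. For palbociclib 22 members were higher and 2 lower in SW620, against 14.6% and 11.2%, with a median of 0.36. PNO1 differed by 1.16 (SE 0.15, edgeR adjusted p = 5e-05), NOLC1 by 0.87, NIP7 by 0.79, NOP58 by 0.77 and RRN3 by 0.76, while FBL (−0.44, SE 0.12) and UBTF (−0.42, SE 0.10) were lower in SW620. For afatinib, 15 members were lower in BT-474 than in BT-20 and 0 higher, against 13.6% and 10.2%, with a median of −0.30. NOP58 differed by −0.74, NIP7 by −0.66, NOP56 by −0.64, DDX21 by −0.64 and RRN3 by −0.64. NIP7 lost its call without any 1 of 7 libraries, at −0.66 to −0.50. Without BT-474 control 3, 9 members were called, where 2795 of all 14410 genes tested were. With library totals 9 members were lower, against 1311 of all genes lower and 2013 higher. NCI-N87 against MKN-45 gave 0 of 44, against 0.00725% higher and 0.00725% lower, with 0 by DESeq2 and a median of 0.44. Of these members 17 had an unadjusted p under 0.05, against 1578 of all 13791 genes tested. Without NCI-N87 control 1, 20 members were called, where 1315 of all 14143 genes tested were. With library totals the trametinib differences split 0 lower and 2 higher in set 1, against 560 and 436 of all genes, and 0 and 22 in set 2, against 2336 and 1617.

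Trametinib and palbociclib were compared directly in the same line. In SW48, 16 members were lower with trametinib and 3 higher, against 20.9% and 21% of all genes, with a median of −0.14. With library totals this was 13 and 5, and 2116 and 3423 of all genes. BOP1 read 53.1, 50.5 and 60.6 CPM with trametinib and 99.7, 80.7 and 87.1 CPM with palbociclib, around controls of 74.7, 78.9 and 66.0 CPM, so the drugs lay on opposite sides of the controls (−0.71, SE 0.09, edgeR adjusted p = 3e-05). RRP12 differed by −0.71, RRP9 by −0.57, PES1 by −0.56 and PNO1 and BYSL by −0.45, and NPM1, which fell more with palbociclib, by 0.40. In SW620, 6 were lower with trametinib and 6 higher, against 16.7% and 15.9%, with a median of 0.00. RRP9 read 47.0, 41.2 and 30.8 CPM with trametinib against 65.6, 63.3 and 71.0 CPM with palbociclib (−0.76, SE 0.14, edgeR adjusted p = 0.0026), and NPM1 differed by 0.59, PES1 by −0.51, BOP1 by −0.50, NAT10 by 0.44 and NOP10 by −0.40. BOP1 lost its call without palbociclib 1 or 3 and NAT10 without palbociclib 1 or 2 (0.44 and 0.42); 6 and 5 members were called without palbociclib 1 and 3, where 3172 of 13539 and 3411 of 13582 genes tested were. PES1 lost its call without trametinib 2 (−0.48). Both SW620 counts are smaller shares of the 44 than the shares of all genes.

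**Figure D5:**
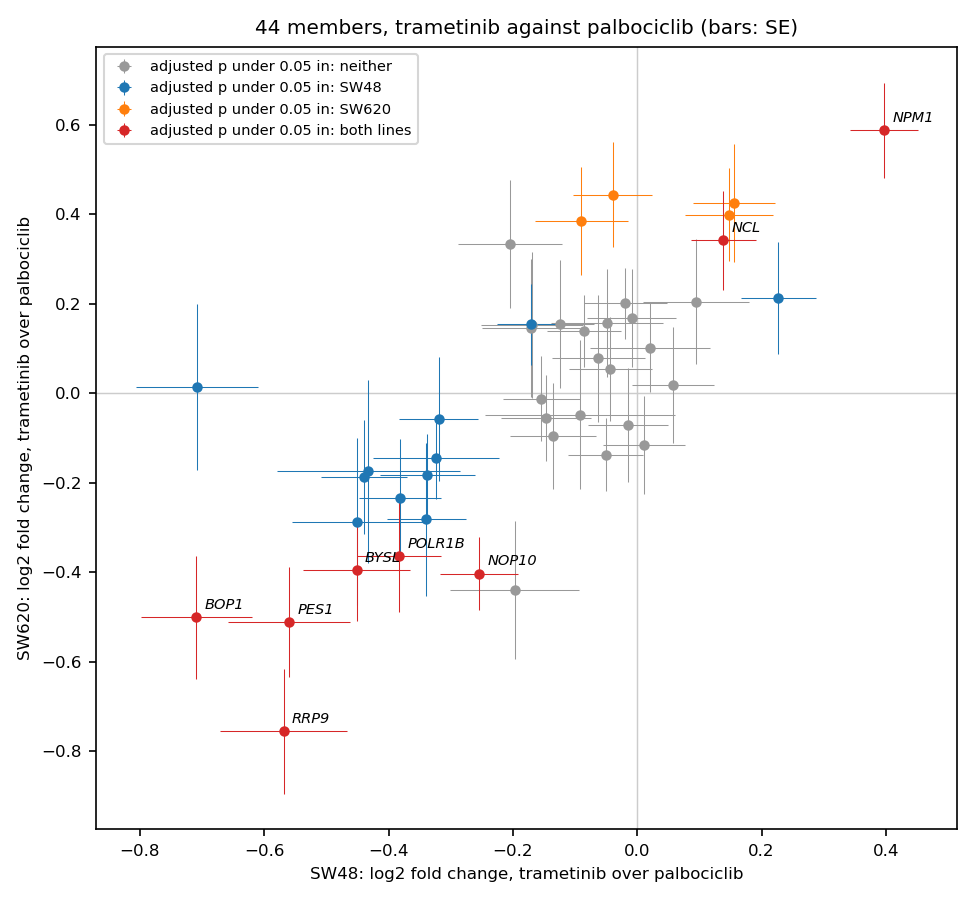
Difference between trametinib and palbociclib (log2 fold change, trametinib minus palbociclib) of the 44 members in SW48 (x axis) and SW620 (y axis), with standard errors as bars. BOP1, RRP9 and PES1 lie at the lower left and NPM1 at the upper right.

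Of 113 other genes of the pathway, 112 were tested in SW48 with trametinib in set 2. Against 30.1% of all genes lower and 30.1% higher, 88 of these were lower and 5 higher, with a median of −0.56. They were 36 lower and 1 higher of 42 small subunit genes, 36 and 1 of 46 large subunit genes, 10 and 1 of 14 exosome genes, and 6 and 2 of 10 tested polymerase I genes. RPF2, a partner of RRS1, fell by 1.40, the exosome subunit EXOSC5 by 1.34, the processome protein UTP15 by 1.28 and the polymerase subunit POLR1G by 1.08, while the terminator TTF1 rose by 0.45. With palbociclib in SW48 80 of 112 were lower and 6 higher, against 29.2% and 28.3% of all genes. EXOSC8 fell most, at −1.92, followed by CCDC86 at −1.30 and BRIX1 at −1.23. In SW620 with palbociclib 47 of 112 were lower and 6 higher, against 17.4% and 17.6% of all genes. There EXOSC8 was at −1.38, DDX51 at −1.16, GNL2 at −1.14 and EXOSC4 at 0.85. BT-474 had 53 of 112 lower and 4 higher, against 21.8% and 20.9% of all genes, with PAK1IP1 at −0.87 and DCAF13 at −0.85. In SW48 set 1, 29 of 111 were lower and 4 higher, against 19.4% and 16% of all genes. PDCD11 was at −1.20 there and TAF1D at −1.17. In the other 5 drug comparisons edgeR called 0 of them. An unadjusted p under 0.05 was found for 2 to 25 of them, and for 366 to 2204 of all genes tested. Of all genes 0% were called there, except in BT-20, with 0.312% lower and 0.273% higher.

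MYC fell by 1.996 with trametinib in SW48 in set 2, by 1.64 in set 1 and by 1.33 with palbociclib, and by 0.44 with palbociclib in SW620. In SW620 with trametinib in set 2 it was at −0.88 and not called (adjusted p = 0.22), but was called without trametinib library 1 (−1.11). With afatinib in BT-474, where 31 members were lower, it read 52.3, 62.5 and 57.2 CPM in controls and 61.2, 59.9 and 64.2 CPM with the drug. These groups overlapped (0.11, edgeR adjusted p = 0.31). The part of MYC in the members' changes was not tested.

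Marker lists and RNA shares moved with some of these groups. In SW48 in set 2 the members' share of counts was 1.26 ± 0.0103% in controls, 0.831 ± 0.00494% with trametinib and 0.819 ± 0.0159% with palbociclib. The 7 intestinal markers, 1 of them at 0 in each group, summed to 98.2 to 112.2 CPM in those controls, 250.8 to 277.9 CPM with trametinib and 166.5 to 187.6 CPM with palbociclib. The 6 fibroblast markers, 0 of them at 0, summed to 14.5 to 14.7 CPM, 51.2 to 54.03 CPM and 24.6 to 27.3 CPM, and the 5 epithelial markers to 3883 to 4029 CPM, 1693 to 1772 CPM and 4530 to 5040 CPM. Mitochondrial ribosomal RNA took 0.970 to 1.604% of counts in these controls, 2.25 to 3.33% with trametinib and 2.94 to 4.52% with palbociclib. In SW48 in set 1, intestinal markers summed to 101.2 to 126.6 CPM in controls and 388.9 to 452.7 CPM with trametinib. There the fibroblast markers summed to 5.90 to 23.1 CPM and 67.6 to 85.6 CPM, and the epithelial markers to 5242 to 5767 CPM and 2727 to 2820 CPM. In SW620 the epithelial markers went from 4697 to 5459 CPM in controls to 8121 to 8703 CPM with palbociclib, and the fibroblast markers from 17.6 to 24.1 CPM to 33.8 to 182.4 CPM. In BT-474 the members' share was 0.632 ± 0.0125% in controls and 0.499 ± 0.00848% with afatinib. There the 7 breast markers, 0 of them at 0, summed to 834.1 to 894.9 CPM in controls and 1308 to 1386 CPM with afatinib, the 8 stomach markers, 2 of them at 0, to 342.2 to 365.7 CPM and 550.3 to 616.5 CPM, and mitochondrial ribosomal RNA took 9.38 to 12.03% and 7.63 to 9.73% of counts. The part of these values in the results was not tested.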

How the data were processed

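The authors' deposited counts of 54 Lexogen QuantSeq libraries, made from 500 ng of RNA each, were used as raw counts per gene. Per the submitters' processing notes they were made with Trimmomatic, STAR and featureCounts on hg38, with no versions given. The 12 libraries of set 1 are repeated in the second table with identical counts and were used once; 5 lines of reads given to no gene were left out of totals. Within each comparison genes were filtered with filterByExpr (minimum count 10, minimum total 15), scaled with TMM and tested with edgeR 4.0.16 (limma 3.58.1, R 4.3.3), quasi-likelihood, Benjamini-Hochberg over all tested genes at 0.05. Standard errors are the log2 fold change over the square root of F. CPM uses TMM over all libraries of a set. DESeq2 1.42.0 and other scalings, filters and fits were alternatives. The test was tested on simulated data. The 44 members and the gene lists were chosen with earlier results of these data known. Genes named per comparison are, in each role, up to 4 called members with the largest fold change plus a fixed 10, and for lists up to 4 called; some that meet this are left out for length. Calls of NPM1, RRN3 and PPAN are uncertain because of copies or overlapping genes. Promoters came from RefSeq, 250 bases before to 50 after a start. Gene coordinates are from GENCODE for GRCh38.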

Additional observations from a re-analysis of the deposited data

Results flagged for a closer look

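The response to a drug differed between lines, by a test of the interaction, for 2 members with trametinib in set 1, 25 with trametinib in set 2, 24 with palbociclib and 15 with afatinib (BT-474 against BT-20). Over all genes tested, 978 of 14525, 3959 of 14027, 3626 of 14098 and 3336 of 14019 differed, in the same order. For trametinib in set 1 the members' share was thus no higher than that of all genes. The named members are given as log2 differences in response. With trametinib SW620 minus SW48 in set 1 they were NOB1 at 1.015 and DDX21 at 0.8592, and in set 2 PNO1 at 1.316, DDX21 at 0.9601 and NIP7 at 0.9581. With palbociclib they were PNO1 at 1.16, NOLC1 at 0.8659 and NIP7 at 0.7874. With afatinib, BT-474 minus BT-20, they were NOP58 at −0.7413, NIP7 at −0.6644 and NOP56 at −0.6449.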

How the results depend on the processing

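Counts of called members were recomputed under DESeq2 size factors, library totals, no filter on low counts, DESeq2, a replicate block, a fit of all groups of the set, and with each library left out. The counts here stand without the all-gene counts of the same settings, so they show only how the members' calls moved. Fitting all groups gave 8 calls for SW48 trametinib in set 1 (18 as reported), 3 for SW620 trametinib in set 2 (0), 20 for NCI-N87 (0), 7 for BT-474 minus BT-20 (15), 9 for NCI-N87 minus MKN-45 (0) and 11 for trametinib against palbociclib in SW48 (19). With no filter, NCI-N87 had 3, NCI-N87 minus MKN-45 had 3 and BT-20 had 2, and DESeq2 also gave 2 in BT-20. Library totals gave 9 for BT-474 minus BT-20. They also moved the members' median from −0.29 to −0.15 for SW48 trametinib in set 1, from −0.71 to −0.58 in set 2, from −0.37 to −0.24 for BT-474, and from −0.14 to −0.07 for trametinib against palbociclib in SW48. Leaving out 1 library gave 0 to 12 calls for SW620 trametinib in set 2, 0 to 21 for NCI-N87, 0 to 1 for BT-20, 2 to 13 for SW620 minus SW48 with trametinib in set 1, 9 to 17 for BT-474 minus BT-20, 0 to 20 for NCI-N87 minus MKN-45, and 5 to 14 for trametinib against palbociclib in SW620, where the median was −0.15 to 0.09. That median, 0.00 as reported, was −0.01 with the replicate block. The cause of these shifts was not tested. Deviations of same-numbered libraries correlated at −0.169 to 0.137. With 3 libraries per group this cannot settle whether the numbers pair them. With the replicate block SW620 minus SW48 in set 1 had 1 call in place of 2, and the other counts moved by less than 1.5 times.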
